A study of Mus musculus with 8 samples.

Results

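The 36 genes described here encode Myc and the machinery that builds ribosomes in the nucleolus, measured in colonic epithelial cells. They were chosen by name as Myc, subunits and initiation factors of RNA polymerase I, proteins of the small nucleolar ribonucleoproteins (snoRNPs), assembly factors of the small and the large ribosomal subunit, and nucleolar organisers. All 36 were measured, among 18193 genes with a probe set of their own on the array. Each gene was represented by 1 probe set, the one with the largest SD over all 8 arrays. Of the 36 genes, 13 had 1 probe set and 23 had several, and in 12 of these 23 all other probe sets had the same sign of difference as the one used.

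The cells came from 2 groups of 4 male C57BL/6 mice kept under specific pathogen-free (SPF) conditions. The mice of both groups were treated with metronidazole and ciprofloxacin (SPF-Abx mice), colonized at 8 wk of age, and sampled at 12 wk of age, 4 wk after colonization. The first group received BTΔMAFF, a strain of the gut symbiont Bacteroides thetaiotaomicron (B. theta) that lacks the genes maffC and maffD of the Mucus-Associated Functional Factor, and the second received the parental strain, BTWT. Living cells that carried EpCAM and lacked the leukocyte marker CD45 were sorted from the colon of each mouse, and their amplified RNA was hybridized to 1 Affymetrix array per mouse. The antibiotics leave part of the gut community in place, so both strains were studied among other bacteria. The question was whether the colonic epithelium differed 4 wk after colonization with a strain that lacks MAFF.

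Ribosomes are made in the nucleolus, where RNA polymerase I transcribes the precursor of the large ribosomal RNAs. The snoRNPs modify and help to cut this precursor, and assembly factors fold it together with ribosomal proteins into a small and a large subunit. The transcription factor Myc binds, with its partner Max, to the DNA motif known as the E-box (CACGTG) and is known as an activator of many genes of this machinery. In the colon, Myc acts downstream of Wnt signalling in the dividing cells of the crypt base, whose ribosome production is high.

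All values are on the log2 scale, and the authors set the median mouse of every probe set to 0, so a value of 0.5 means that the mouse lay 0.5 above the median mouse for that gene. They hold no absolute level, and levels of different genes cannot be compared. Replicates are separate mice, and p-values measure the spread between these 8 mice. In RNA of bulk cells, fewer cells of a type and less RNA per cell cannot be told apart. The main axis of variation (29.4% of the variance) set the BTΔMAFF 4 and BTWT 2 arrays apart from the rest. As a measure of RNA integrity, the value of the Gapdh 3-prime control less that of the 5-prime control was 0.0054 ± 0.16 in BTΔMAFF and -0.11 ± 0.14 in BTWT (SD, n = 4 each, two-sided exact permutation test, p = 0.314). The same difference of the beta-actin controls was 0.034 ± 0.051 in BTΔMAFF and -0.036 ± 0.020 in BTWT (SD, n = 4 each, same exact test, p = 0.0857). Epcam, the sorting marker, differed by -0.10 (BTΔMAFF minus BTWT, standard error 0.23) and Ptprc, which encodes CD45, by 0.0067 (standard error 0.031), and both turned sign when single arrays were left out. Of the 9 epithelial markers, Epcam among them, 7 had a positive and 2 a negative difference, with a median of 0.16. Of all genes, 33.1% had a positive difference. Presence of the epithelial markers could not be checked, because centred values show only differences between mice.

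The windows from 250 bases before to 50 bases after the start sites of the genes were searched for the E-box of Myc, CACGTG. This motif reads the same on both strands. The RefSeq table (GRCm38.p6) held a window for 30 of the 36 genes. The genes Myc, Fbl, Npm1, Bop1, Rrp12, and Rrs1 were not in it. The motif stood in the window of 7 of the 30 genes (23.3%), against 2187 of the 27025 genes of the table (8.09%) and 7.15% of its 32851 windows. The share was 21.2% in other ribosome biogenesis factors, 23.8% in the Myc network, and 34.4% in Myc targets outside the nucleolus. It was 9.76% in cytoplasmic ribosomal proteins and 18.2% in markers of differentiated colonocytes. The motif was thus not particular to the 36 genes. The 7 genes and the motif, in capitals, are shown here because they are the ones whose window holds the letters that Myc binds. For Nop2 and Rrn3, the 250 bases before the start site are given 5′ to 3′ on the gene's strand, and for the other 5 genes 30 bases around a motif that lay after the start site.
Nop2: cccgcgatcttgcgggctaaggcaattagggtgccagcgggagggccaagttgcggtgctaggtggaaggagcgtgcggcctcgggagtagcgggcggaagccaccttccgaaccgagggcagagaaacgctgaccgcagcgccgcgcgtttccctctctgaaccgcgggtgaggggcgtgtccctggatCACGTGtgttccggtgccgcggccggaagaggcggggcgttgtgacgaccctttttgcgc
Rrn3: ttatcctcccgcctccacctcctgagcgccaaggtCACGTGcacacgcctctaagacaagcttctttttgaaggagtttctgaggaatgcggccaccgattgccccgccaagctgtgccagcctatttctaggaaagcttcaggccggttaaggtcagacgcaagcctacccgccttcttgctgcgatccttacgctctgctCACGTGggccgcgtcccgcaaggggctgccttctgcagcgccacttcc
Ltv1: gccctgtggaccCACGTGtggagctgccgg
Utp20: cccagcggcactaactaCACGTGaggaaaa
Pes1: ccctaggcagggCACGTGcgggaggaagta
Mybbp1a: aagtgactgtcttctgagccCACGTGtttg
Wdr43: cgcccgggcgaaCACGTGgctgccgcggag
The Nop2 sequence lies at chr6:125131633-125131882 on the plus strand, with the motif starting 60 bases before the start site. The Rrn3 sequence lies at chr16:13780449-13780698 on the plus strand and holds the motif at 2 places, 215 and 48 bases before the start site. The Ltv1 site lies at chr10:13193092-13193121 and the Utp20 site at chr10:88826765-88826794, both on the minus strand. The Pes1 site lies at chr11:3963965-3963994, the Mybbp1a site at chr11:72441347-72441376, and the Wdr43 site at chr17:71616220-71616249, all on the plus strand. A match is a description of the letters in these windows, and binding was not measured. The median difference between BTΔMAFF and BTWT was 0.062 over the 7 genes with the motif and -0.041 over the 23 genes with a window without it. In BTΔMAFF 1, the mouse with the highest values, the mean was 0.45 over the genes with the motif and 0.66 over those without it, and 4 of the 7 and 14 of the 23 had their highest value there.

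Ribosome biogenesis genes and Myc differed little between BTΔMAFF- and BTWT-colonized mice. No gene passed the adjusted threshold of 0.05 (limma, Benjamini-Hochberg over 45037 probe sets), and neither did any other probe set of the array (0%), whereas 2295 probe sets had an unadjusted p under 0.05. The unpaired test that the methods name, after the same adjustment, also called 0 probe sets. At an unadjusted p under 0.05, 0 of the 36 genes were higher in BTΔMAFF, where 3.37% of all 18193 genes were, and 1 was lower, where 2.35% of all genes were. The differences ranged from -0.58 for Rrs1 to 0.55 for Ltv1 with a median of -0.054, against a median of -0.019 over all genes. They were positive in 14 of the 36 genes (38.9%), close to the 33.1% of all genes in the values as deposited. The data cannot exclude moderate changes in either direction, since the 95% interval held 0 for 35 genes and reached a median of 0.70 to each side of the estimate, which is 1.63-fold. The precision is limited by the number of arrays. For 34 of the 36 genes, the larger of the within-group SDs exceeded the difference between the groups, as it did for 16128 of all 18193 genes.

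**Figure D1:**
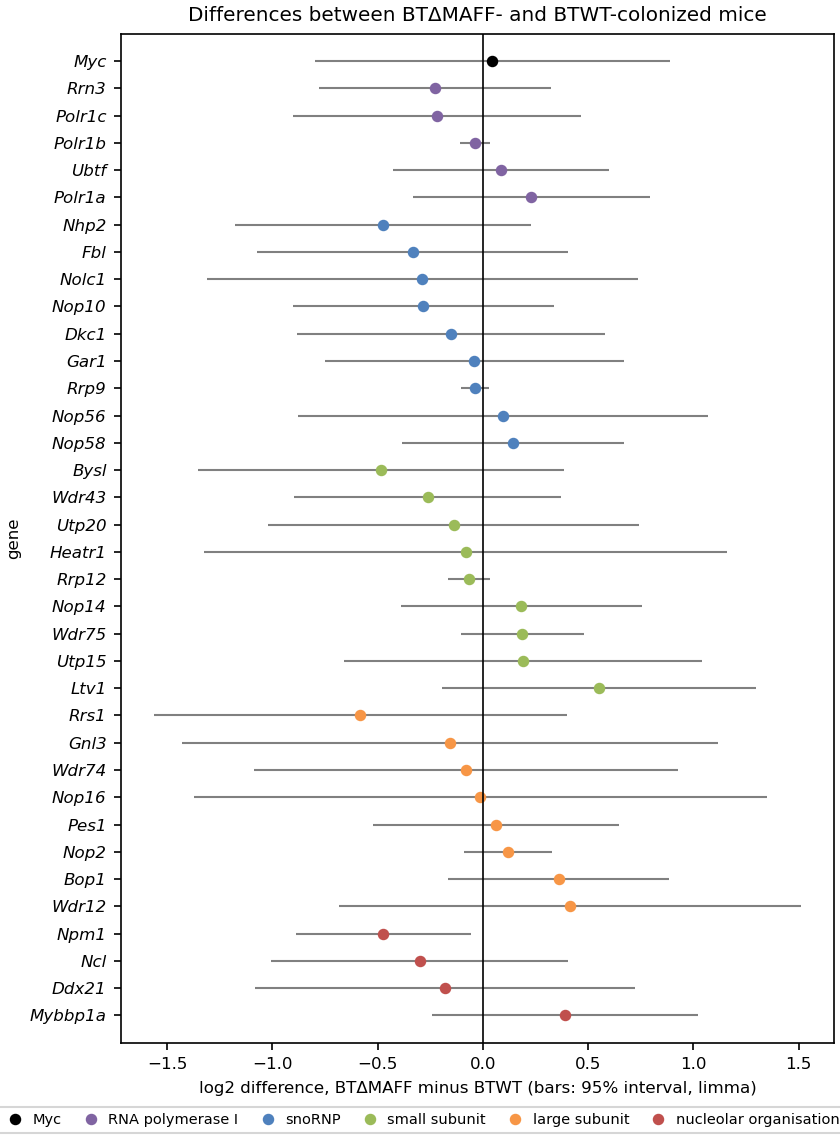
Log2 difference of each of the 36 genes (horizontal axis, BTΔMAFF minus BTWT; bars, 95% interval from limma; colours, role of the gene). The interval holds 0 for 35 genes, and only that of Npm1 lies below 0.

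The differences between mice of the same group were larger. The mean over the 36 genes was 0.56, -0.13, -0.31, and -0.10 in the 4 BTΔMAFF mice and 0.30, -0.11, 0.10, and -0.067 in the 4 BTWT mice (replicates 1 to 4). The means thus spanned 0.87 within BTΔMAFF and 0.40 within BTWT, while the group means of 0.0040 ± 0.38 and 0.056 ± 0.18 (SD, n = 4 each) differed by -0.052. The BTΔMAFF 1 mouse was the highest and the BTΔMAFF 3 mouse the lowest of all 8, so that both extremes lay in the same group. In BTΔMAFF 1, 30 of the 36 genes lay above the median mouse, where 34.9% of all genes did, and in BTWT 1, 31 of the 36 did, where 75.9% of all genes did. The shares of all genes moved with the centring of the arrays. With each array centred on its median, 33 genes against 52.1% lay above 0 in BTΔMAFF 1, and 29 against 53.9% in BTWT 1. After quantile normalization, these were 34 against 59.5% and 29 against 61%. The highest value of the 8 mice was that of BTΔMAFF 1 for 21 of the 36 genes (58.3%), against 11.4% of all genes. This count was 19, 23, and 20 after quantile normalization, centring of each array on its median, and averaging of all probe sets of a gene, against 10.5%, 14.4%, and 11.0% of all genes, in alternatives that were chosen after the data were seen. The 33 other probe sets of the same genes were highest in BTΔMAFF 1 in 10 cases. BTΔMAFF 3 was the lowest mouse for 13 of the 36 genes (36.1%), a share below the 42.4% of all genes in the values as deposited.

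**Figure D2:**
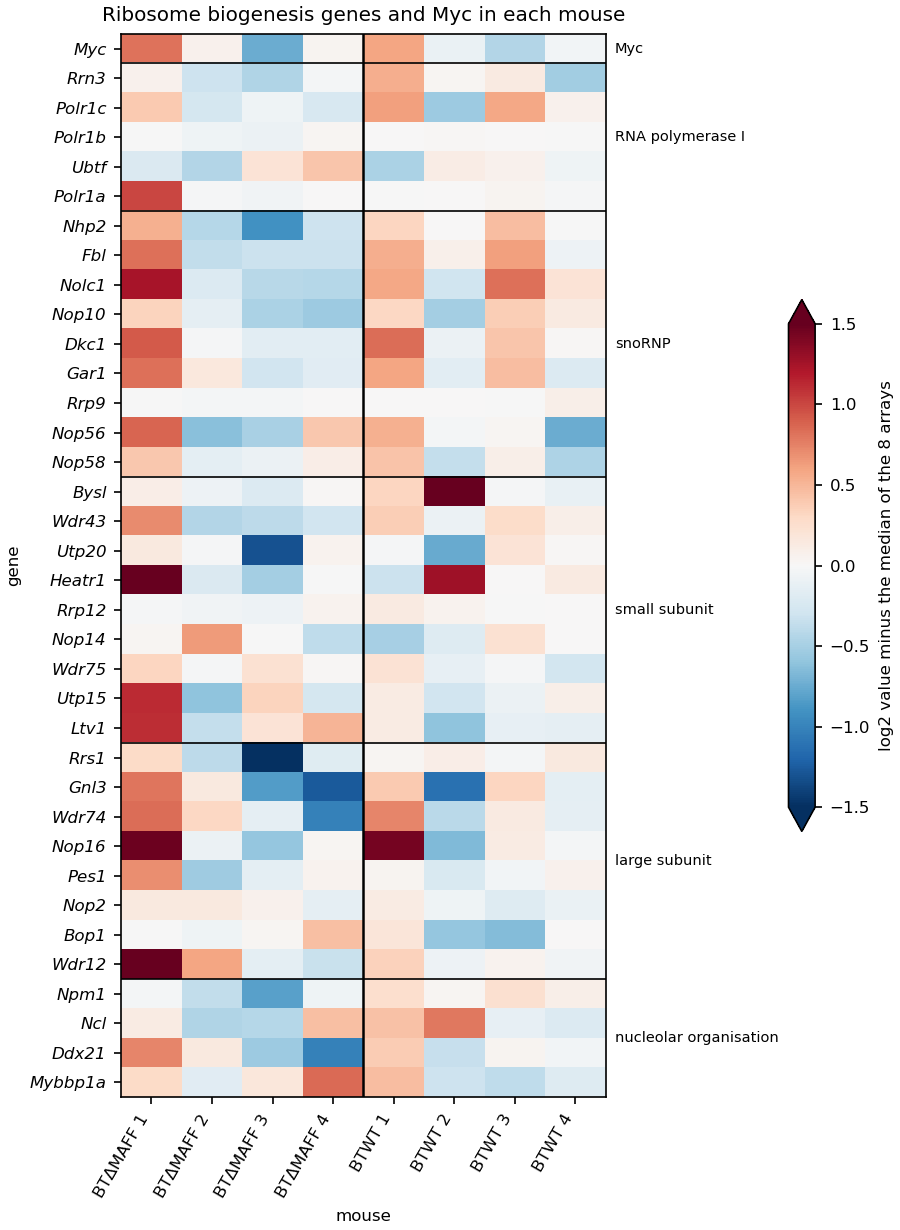
Centred log2 values (colour; the scale ends at -1.5 and 1.5) of the 36 genes in rows, by role, in the 8 mice in columns, BTΔMAFF left of the line and BTWT right of it. The column of BTΔMAFF 1 is the reddest, with 30 of 36 genes above 0 (34.9% of all genes) and 21 at their highest value there (11.4% of all genes). The columns of BTΔMAFF 2 and 3 hold 8 (22.2%) and 7 (19.4%) genes above 0, where 28.8% and 29.7% of all genes lay above 0.

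Myc itself did not separate the groups. Its single probe set had values of 0.82, 0.065, -0.74, and 0.042 in BTΔMAFF mice and 0.60, -0.10, -0.44, and -0.042 in BTWT mice. The replicate 1 mouse was the highest and the replicate 3 mouse the lowest in each group, and the groups overlapped over nearly their whole range. The difference was 0.044 (standard error 0.36, 95% interval -0.80 to 0.89, adjusted p = 0.953 by limma), which turned to -0.21 without BTΔMAFF 1.

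Of the 5 genes of RNA polymerase I, 0 had an unadjusted p under 0.05, and the differences ranged from -0.23 for Rrn3 to 0.23 for Polr1a. Polr1b, which encodes the second-largest subunit, had the smallest p of them. It had values of -0.0020, -0.068, -0.083, and 0.024 in BTΔMAFF mice, against 0.0048, 0.019, 0.0020, and -0.0074 in BTWT mice. All 8 mice lay within a narrow range, and the groups overlapped, with a difference of -0.037 (standard error 0.030, adjusted p = 0.828). Polr1b, Rrp9, and Rrp12 were the 3 genes with an SD under 0.1 over all arrays, and from centred values a gene that barely varied and a probe set without signal cannot be told apart. Polr1a, the gene of the largest subunit, lay at 1.00 in BTΔMAFF 1 and between -0.052 and 0.040 in the other 7 mice. Among the 4 remaining probe sets for Polr1a, 1 shared this sign. Rrn3, which brings the polymerase to the ribosomal RNA promoter, had values of 0.062, -0.31, -0.45, and -0.025 in BTΔMAFF mice and 0.55, 0.025, 0.13, and -0.53 in BTWT mice. Ubtf, the gene of the upstream binding factor, was one of the 6 genes below 0 in BTΔMAFF 1, at -0.21, but its other probe set lay at 0.57 in that mouse.

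The 9 snoRNP genes lay lower in 7 cases and higher in 2 in BTΔMAFF, where 12162 of all 18193 genes lay lower. Their median difference was -0.15, with 0 genes at an unadjusted p under 0.05. In BTΔMAFF 1, 8 of them lay above 0, and 6 had their highest value of all mice there. Nhp2 had the smallest p. It encodes a protein of the box H/ACA particles, which convert uridine in ribosomal RNA to pseudouridine. Its values were 0.53, -0.43, -0.90, and -0.31 in BTΔMAFF mice and 0.32, 0.0042, 0.47, and -0.0042 in BTWT mice. BTΔMAFF 1 was the highest mouse, and the 3 other BTΔMAFF mice lay below all BTWT mice. The difference over all 8 mice was -0.48 (standard error 0.30, 95% interval -1.18 to 0.23, adjusted p = 0.828). In the other probe set of Nhp2, BTWT 3 was the highest mouse, at 0.73, and BTΔMAFF 2 (-0.063) lay above BTWT 4 (-0.082). The catalytic subunit of these particles, Dkc1, had 0.92, -0.023, -0.16, and -0.16 in BTΔMAFF mice, against 0.83, -0.084, 0.41, and 0.023 in BTWT mice. The 4 genes of the H/ACA core (Dkc1, Gar1, Nhp2, and Nop10) had a mean of 0.65, -0.11, -0.46, and -0.30 in BTΔMAFF mice, and of 0.51, -0.19, 0.43, and -0.012 in BTWT mice. All 4 had a negative difference (-0.48 to -0.041), a sign that most of all genes shared. Of the 2 other probe sets of Dkc1, 1 gave 0.17 and 1 gave -0.33.

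The box C/D particles methylate ribosomal RNA, and Fbl encodes their methyltransferase, fibrillarin. Fbl lay at 0.83 in BTΔMAFF 1 and between -0.37 and -0.32 in the 3 other BTΔMAFF mice, against 0.54, 0.074, 0.61, and -0.074 in BTWT mice. The single high mouse thus lay above, and the 3 others below, the whole BTWT group, and the difference was -0.33 (standard error 0.31, adjusted p = 0.828). The other probe set of Fbl had the same sign, with a difference of -0.32, but did not show this pattern. There, BTΔMAFF 1 (0.40) lay below BTWT 1 (0.57), and BTΔMAFF 4 (-0.011) lay above BTWT 2 (-0.11). The core proteins Nop56 and Nop58 had differences of 0.095 and 0.14, and Rrp9, a protein of the U3 particle, one of -0.038. Nolc1, which encodes a chaperone of both kinds of particles, had 1.23, -0.21, -0.42, and -0.43 in BTΔMAFF mice and 0.58, -0.29, 0.83, and 0.21 in BTWT mice.

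**Figure D3:**
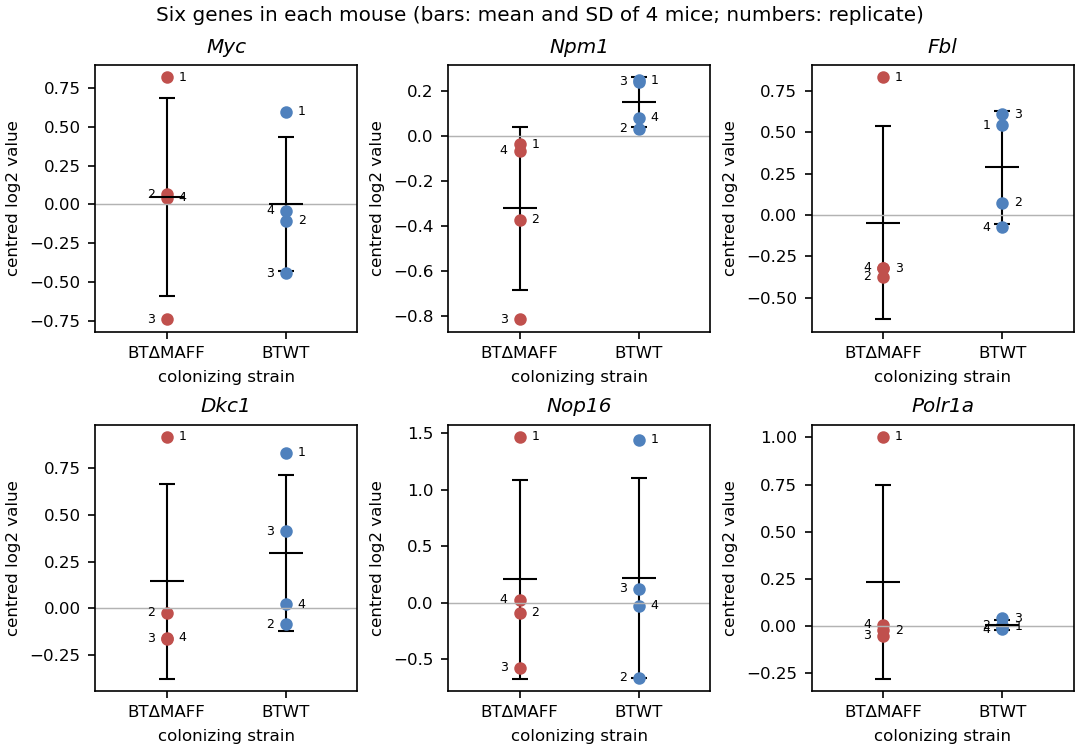
Centred log2 values (vertical axes) of Myc, Npm1, Fbl, Dkc1, Nop16, and Polr1a in each mouse (points, numbered by replicate), BTΔMAFF left and BTWT right, with the mean and SD of 4 mice. Npm1 is the gene whose groups do not overlap, and in the 5 others BTΔMAFF 1 is the highest of the 8 mice.

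Of the 9 genes of the small subunit pathway, 4 had a positive and 5 a negative difference, with 0 at an unadjusted p under 0.05. Ltv1, whose product accompanies the nascent small subunit out of the nucleus, had the smallest p. Its values were 1.11, -0.36, 0.21, and 0.51 in BTΔMAFF mice, against 0.12, -0.61, -0.12, and -0.13 in BTWT mice. In BTΔMAFF, 3 of the 4 mice lay above all BTWT mice, and the difference was 0.55 (standard error 0.32, 95% interval -0.20 to 1.30, adjusted p = 0.828). Components of the small subunit processome, the complex that assembles on the nascent RNA, gave single high or low mice. Heatr1 lay at 1.5 in BTΔMAFF 1 and at 1.28 in BTWT 2 and between -0.51 and 0.14 in the other mice, and its 2 other probe sets had the opposite sign. Utp20 lay at -1.30 in BTΔMAFF 3 and at -0.76 in BTWT 2. Utp15 lay at 1.12 in BTΔMAFF 1 and between -0.60 and 0.33 elsewhere, but its other probe set lay at -0.0014 in BTΔMAFF 1. Wdr43 followed the pattern of Fbl, with 0.71, -0.44, -0.39, and -0.28 in BTΔMAFF mice and 0.37, -0.083, 0.27, and 0.083 in BTWT mice (difference -0.26, standard error 0.27, adjusted p = 0.828). In its other probe set, BTWT 1 was the highest mouse, at 0.64, and BTΔMAFF 3 (0.0028) lay above BTWT 4 (-0.028). Bysl, the gene of bystin, lay at 1.59 in BTWT 2 and within -0.20 to 0.32 in the 7 others, but its other probe set lay at 0.0079 in BTWT 2. Nop14, Wdr75, and Rrp12 had differences of 0.18, 0.19, and -0.066.

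The 8 genes of the large subunit pathway were split evenly between positive and negative differences, which ranged from -0.58 to 0.41, with 0 at an unadjusted p under 0.05. BTΔMAFF 1 was above 0 for 7 of the 8 and the highest of all mice for 7. Pes1, Bop1, and Wdr12 form the PeBoW complex, which is needed to process the RNA of the large subunit. Bop1 had the smallest p, with -0.011, -0.063, 0.029, and 0.45 in BTΔMAFF mice and 0.19, -0.58, -0.65, and 0.011 in BTWT mice. The groups overlapped, and the difference was 0.36 (standard error 0.22, 95% interval -0.17 to 0.89, adjusted p = 0.828). Its other probe set gave -0.022. The 3 genes had positive differences (0.062 for Pes1 and 0.41 for Wdr12), but Wdr12 rested on a value of 1.83 in BTΔMAFF 1, and both of its other probe sets had the opposite sign. Rrs1, a factor that brings the 5S particle into the large subunit in yeast, had 0.28, -0.39, -1.79, and -0.18 in BTΔMAFF mice, against 0.028, 0.10, -0.028, and 0.15 in BTWT mice. It had the most negative difference of the 36 genes (-0.58, standard error 0.42, adjusted p = 0.828), with a single low mouse. Nop16 had nearly equal means in both groups, with 1.47, -0.092, -0.57, and 0.026 in BTΔMAFF mice and 1.44, -0.66, 0.12, and -0.026 in BTWT mice, so that the replicate 1 mice of both groups stood more than 1 above the others. Its other probe set did not show this, at -0.012 in BTΔMAFF 1 and 0.012 in BTWT 1. Gnl3, the gene of nucleostemin, had 0.80, 0.14, -0.84, and -1.26 in BTΔMAFF mice and 0.39, -1.11, 0.32, and -0.14 in BTWT mice. Wdr74 ranged from -1.01 to 0.84 within BTΔMAFF. Nop2, a methyltransferase of the large ribosomal RNA whose promoter is shown above, varied little and had a difference of 0.12 (standard error 0.089, adjusted p = 0.828).

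Of the 4 nucleolar organisers, Npm1 was the gene at an unadjusted p under 0.05. Npm1 encodes nucleophosmin, a chaperone and an abundant protein of the outer layer of the nucleolus. Its values were -0.034, -0.37, -0.81, and -0.064 in BTΔMAFF mice and 0.25, 0.034, 0.24, and 0.083 in BTWT mice. All BTΔMAFF mice lay below all BTWT mice, and the difference was -0.47 (standard error 0.18, 95% interval -0.89 to -0.057, 1.39-fold lower in BTΔMAFF, adjusted p = 0.828 by limma). Groups that did not overlap were thus found for 1 of 36 genes in this direction, where 1.30% of all genes had such groups, and for 0 in the other, where 1.84% did. The other probe set of Npm1 gave -0.23 (standard error 0.14), and there the groups overlapped, with BTΔMAFF 4 at 0.074 and BTWT 4 at -0.15. Mybbp1a, a Myb-binding protein of the nucleolus, had 0.28, -0.18, 0.18, and 0.85 in BTΔMAFF mice, against 0.46, -0.31, -0.38, and -0.19 in BTWT mice, with a difference of 0.39 (standard error 0.27, adjusted p = 0.828). Its other probe set had the opposite sign. Ncl, which encodes nucleolin, had a difference of -0.30, and its 4 other probe sets were split in sign. Ddx21, an RNA helicase, ranged from -1.02 in BTΔMAFF 4 to 0.73 in BTΔMAFF 1.

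The comparison depended on single mice. BTΔMAFF 1 was the highest mouse for 21 of the 36 genes, against 11.4% of all genes. Leaving it out therefore lowers most of their differences by construction, and the shares of all genes are no equal reference. Without BTΔMAFF 1, the mean difference over the 36 genes was -0.24 in place of -0.052, 28 of the 36 differences (77.8%) were negative, against 67.8% of all genes, and 5 genes had an unadjusted p under 0.05 and were lower in BTΔMAFF, where 3.30% of all genes were. These were Wdr43 (-0.53, adjusted p = 0.461), Nhp2 (-0.75, adjusted p = 0.568), Fbl (-0.63, adjusted p = 0.685), Npm1 (-0.57, adjusted p = 0.723), and Nolc1 (-0.68, adjusted p = 0.852, limma). There were 0 higher genes, against 3.29% of all genes. In 5 genes (Wdr43, Nhp2, Fbl, Npm1, and Rrs1), the 3 remaining BTΔMAFF mice lay below all BTWT mice, as did 2.80% of all genes. In the other probe sets of Wdr43, Nhp2, Fbl, and Npm1, these mice overlapped with BTWT mice. Over the roles, the median differences then were -0.42 for the 4 nucleolar organisers, -0.41 for the snoRNP genes, -0.26 for the large subunit, -0.13 for the small subunit, and -0.047 for RNA polymerase I, and Myc was at -0.21. Without BTWT 1, in contrast, 3 genes were higher in BTΔMAFF at an unadjusted p under 0.05, where 2.86% of all genes were, and 0 lower. These were Wdr75 (0.28), Bop1 (0.51), and Mybbp1a (0.58), each with an adjusted p = 0.903 by limma. The sign of the difference was the same under all alternatives for 16 of the 36 genes.

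Genes of the same pathway outside the 36 were compared as lists. Of 145 other ribosome biogenesis factors, 138 were measured. At an unadjusted p under 0.05, 6 were higher in BTΔMAFF, where 3.37% of all genes were. There was 1 lower, where 2.35% of all genes were, with 131 not passing and a median difference of 0.049. Utp18, a component of the small subunit processome, had -0.070, 0.038, -0.84, and -0.86 in BTΔMAFF mice and 0.83, 0.71, -0.038, and 0.28 in BTWT mice (difference -0.88, standard error 0.29, adjusted p = 0.804 by limma). Riok3, a kinase found on the maturing small subunit, had 0.13, 0.0049, 0.54, and 0.30 in BTΔMAFF mice, against -0.0049, -0.68, -0.68, and -0.050 in BTWT mice (difference 0.60, standard error 0.20, adjusted p = 0.825). The groups of Utp18 overlapped in 1 BTΔMAFF mouse, and those of Riok3 did not overlap. The value of Utp18 was -0.30 with array weights and -0.017 with its most specific probe set. The list mean of these factors was also highest in BTΔMAFF 1, with 0.32, -0.053, 0.0066, and -0.11 in BTΔMAFF mice and 0.22, -0.23, 0.013, and -0.066 in BTWT mice. Of these 138 factors, 46 (33.3%) had their highest value in BTΔMAFF 1, against 11.4% of all genes.

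Of 46 measured cytoplasmic ribosomal protein genes, the products that these factors assemble, 0 were higher and 0 lower at an unadjusted p under 0.05. Their differences were positive in 7 (15.2%, against 33.1% of all genes) and negative in 39, with a median of -0.12, and their list mean was 0.34 in BTΔMAFF 1, between -0.15 and -0.10 in the other BTΔMAFF mice, and 0.29, -0.15, 0.20, and 0.052 in BTWT mice. Without BTΔMAFF 1, 12 of the 46 were lower in BTΔMAFF at an unadjusted p under 0.05, where 3.30% of all genes were. Their list mean was highest in that mouse, so leaving it out lowers the mean difference by construction. Of 22 measured genes of the Myc network, the partners and antagonists of Myc, 0 were lower, where 2.35% of all genes were. There was 1 higher gene, where 3.37% of all genes were. It was Mxi1, an antagonist that competes with Myc for Max, with 0.012, 0.15, 0.20, and 0.11 in BTΔMAFF mice and -0.50, -0.012, -0.44, and -0.13 in BTWT mice. The groups did not overlap, and the difference was 0.39 (standard error 0.12, adjusted p = 0.693 by limma). Of 36 measured targets of Myc that act outside the nucleolus, 0 were higher, where 3.37% of all genes were. There were 2 lower genes, where 2.35% of all genes were. They were Hk2, the gene of hexokinase 2, with -0.25, -0.12, -0.25, and -0.37 in BTΔMAFF mice and 0.12, 0.24, 0.30, and 0.13 in BTWT mice (difference -0.45, standard error 0.064, adjusted p = 0.178 by limma), and Slc3a2, a subunit of amino acid transporters (difference -0.41, standard error 0.17, adjusted p = 0.828). Hk2 had the lowest adjusted p of the genes named here, and its groups did not overlap. With array weights, Hk2 (adjusted p = 0.0339) and Mxi1 (adjusted p = 0.0432, limma) passed the adjusted threshold.

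Markers of the cell types that the sort could hold were compared in the same way. Of the 14 measured markers of dividing cells, 5 were lower in BTΔMAFF at an unadjusted p under 0.05, where 2.35% of all genes were, and 0 were higher, and all 14 had a negative difference. Mki67 had 0.016, -0.42, -1.01, and -0.091 in BTΔMAFF mice, against 0.44, 0.15, 0.33, and -0.016 in BTWT mice (difference -0.60, standard error 0.23, adjusted p = 0.828 by limma). The mean of the list was -0.015, -0.10, -0.72, and -0.31 in BTΔMAFF mice, and 0.91, 0.24, 0.38, and -0.12 in BTWT mice. BTΔMAFF 3, the lowest mouse for the ribosome biogenesis genes, was also the lowest here, whereas BTΔMAFF 1, the highest mouse for them, lay in the middle of the range and was the highest mouse for 0 of the 14 markers. Of 11 crypt-base stem cell markers, 1 was lower, where 2.35% of all genes were, and 0 were higher, where 3.37% were. Their mean was 0.38, -0.26, -0.34, and -0.20 in BTΔMAFF mice and 0.60, -0.086, 0.31, and -0.048 in BTWT mice. Of 10 goblet cell markers, 3 were higher, where 3.37% of all genes were, and 1 was lower, where 2.35% were. Their mean was 0.88, 0.072, 0.43, and 0.46 in BTΔMAFF mice and -0.55, -0.99, 0.092, and -0.55 in BTWT mice. These means rest largely on Ang4, an antimicrobial protein, which differed by 7.06, whereas the median difference of the 10 markers was 0.19. The 8 leukocyte markers, of which 0 were higher or lower, had means between 0.022 and 0.21 in BTΔMAFF and between -0.020 and 0.11 in BTWT. Centred values do not show which of the defining markers are near 0 in level. The part of these cell types in the values of the ribosome biogenesis genes was not tested.

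**Figure D4:**
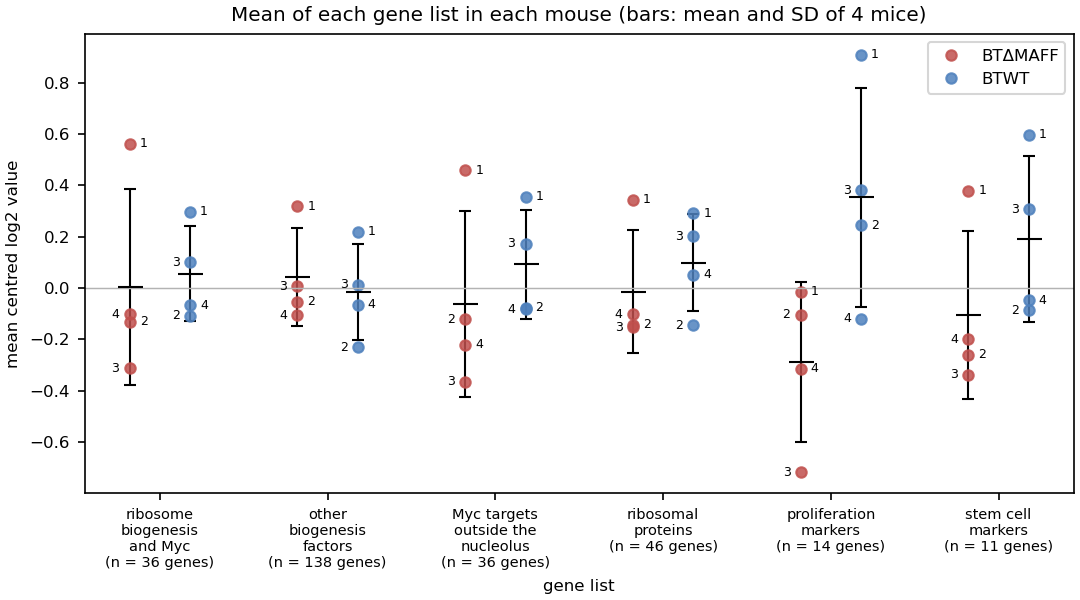
Mean centred log2 value (vertical axis) of 6 gene lists in each mouse (points, numbered by replicate), BTΔMAFF left and BTWT right in each pair, with the mean and SD of 4 mice. BTΔMAFF 1 is the highest mouse for the 36 genes (0.56), the other biogenesis factors, the Myc targets, and the ribosomal proteins, but lies at -0.015 for the proliferation markers, where BTWT 1 is at 0.91.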

How the data were processed

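RNA of sorted colonic epithelial cells from 4 BTΔMAFF- and 4 BTWT-colonized mice was amplified with a NuGen Ovation kit and hybridized to Affymetrix arrays for the mouse genome. The authors deposited log2 values of 45101 probe sets, each centred so that its median over the arrays is 0. Affymetrix Expression Console appears in the submitters' processing notes without a version, and GeneSpring appears in the methods. How probes were summarized, corrected for background, and normalized is not given in the sources used. Centring removes absolute levels, so no filter on dim probe sets was possible.

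Without the 64 control probe sets, 45037 were compared (BTΔMAFF minus BTWT, no covariate) by lmFit and eBayes of limma 3.58.1 (R 4.3.3), with Benjamini-Hochberg adjustment at 0.05. The platform annotation gives 1 gene for 34945 of these, several for 932, which stayed unnamed, and none for 9160. RefSeq gene IDs (GRCm38.p6) matched 34741 and changed 0 symbols. Where a gene had several, the probe set with the largest SD was used, groups ignored, which can favour probe sets with 1 extreme array. Samples were grouped by their labels.

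The 36 genes and the lists were chosen with earlier results of these data known, so the counts of genes are descriptions. They were read against the share of all genes with the same property, except for some counts under alternative settings. Values in every mouse were to be given for Myc, genes at an unadjusted p under 0.05, and the gene of smallest p in each role, and others were added after their values were seen. Of other lists, up to 3 genes of smallest p were to be named, and fewer were, with Mki67, Epcam, and Ptprc as checks. The epithelial, differentiated colonocyte, enteroendocrine, tuft, and stromal and endothelial markers (9, 12, 8, 6, and 10 genes) had 3, 2, 0, 0, and 0 higher and 0, 1, 1, 1, and 0 lower genes in BTΔMAFF at an unadjusted p under 0.05. Of all genes, 3.37% were higher and 2.35% lower. All 7 genes with an E-box were shown, in place of the 4 of smallest p.

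Alternatives were quantile normalization, median centring, array weights, a robust prior, the unpaired test of the methods, a block for the replicate number, removal of single arrays or of both arrays that stood apart, an SD filter, and other choices of probe set. The procedure was tested on simulated data. Other experiments of the study were not analysed here.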

Additional observations from a re-analysis of the deposited data

Results flagged for a closer look

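In 5 of the 36 genes, the BTΔMAFF 1 mouse lay far from the 3 other mice of its group, which lay close together. Fbl was 0.83 there and between -0.37 and -0.32 in the others, Nolc1 1.23 against -0.43 to -0.21, Dkc1 0.92 against -0.16 to -0.023, Wdr43 0.71 against -0.44 to -0.28, and Polr1a 1.00 against -0.052 to 0.0078 on the centred log2 scale. These values belong to the probe sets used. In BTΔMAFF 1, the other probe sets lay at 0.000735 and 0.36 for Nolc1, at 0.17 and 0.37 for Dkc1, and from -0.069 to 0.51 for Polr1a. Those of Fbl and Wdr43 lay at 0.40 and 0.59, below BTWT 1 at 0.57 and 0.64. In BTΔMAFF 3, Utp20 lay at -1.30, with the other mice of its group between -0.014 and 0.15. In BTWT 4, Rrp9 lay at 0.086, with the others between -0.0016 and 0.0076, a gap that is small on this scale. These were 7 of 74 groups of 4 mice tested by Dixon's criterion, which nominally flags about 1 in 20 groups by chance. That rate need not hold here, because probe sets were chosen for the largest SD, which can favour 1 extreme array. The 7 flags are therefore not read as an excess. The genes vary together between mice, so the 5 values of BTΔMAFF 1 are not independent of each other.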

How the results depend on the processing

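Of the 36 genes, 0 passed the adjusted threshold under any alternative. The sign turned for 20 of the 36 genes under at least 1 alternative, for 16 when single arrays were left out and for 15 under other settings. Of all probe sets, 0 were called as deposited, 1 with arrays centred on their median, 510 with array weights (which gave BTΔMAFF 2 a weight of 4.36 and BTWT 3 one of 4.68), 2 without both arrays that stood apart, 25 after the SD filter, and 0 to 6 when single arrays were left out. The 6 were called without BTΔMAFF 4. The array weights were lowest for the arrays that stood apart, 0.12 for BTΔMAFF 4 and 0.27 for BTWT 2. At an unadjusted p under 0.05, array weights gave 1 higher and 5 lower genes of the 36, and the most specific probe set gave 0 lower ones. The share of all genes under these settings, and under the replicate block below, is not given here. Array weights also raised the calls over all probe sets, so these counts are not read as results about the 36 genes. With single arrays left out, 0 to 3 were higher and 0 to 5 lower, and the mean difference ranged from -0.24 without BTΔMAFF 1 to 0.054 without BTΔMAFF 3. Npm1 missed an unadjusted p of 0.05 without BTΔMAFF 2, BTWT 1, BTWT 3, or BTWT 4, with p from 0.0507 to 0.0711. With single arrays left out, the unadjusted p ranged from 0.0114 to 0.0534 for Utp18, from 0.0123 to 0.0583 for Riok3, and from 0.00934 to 0.105 for Slc3a2. With array weights, Hk2 and Mxi1 passed the adjusted threshold (adjusted p = 0.0339 and 0.0432). The cause of these changes was not tested. Same-numbered mice deviated together in replicate 1 only (correlations of deviations 0.39, -0.040, 0.033, and -0.27 for replicates 1 to 4). The labels do not say whether the numbers pair the mice, and these correlations cannot settle it, so the mice were treated as unpaired. With the replicate block, 2 genes were higher, 1 was lower, and the mean difference stayed at -0.052.

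Differences that turned sign were these. With each array centred on its median, Nop16 was 0.0062. With array weights, Nop56 was -0.31, Nop58 was -0.080, Pes1 was -0.21, Wdr74 was 0.15, Utp15 was -0.10, Heatr1 was 0.077, Ubtf was -0.24, Ddx21 was 0.069, and Ptprc was -0.013. Without both arrays that stood apart, Nop56 was -0.019, Pes1 was -0.014, Wdr74 was 0.094, Heatr1 was 0.32, and Ptprc was -0.0053. With the mean of all probe sets of a gene, Nop56 was -0.0064, Heatr1 was 0.14, and Ptprc was -0.0080. With the most specific probe set, Dkc1 was 0.17, Bop1 was -0.022, Wdr12 was -0.14, Wdr75 was -0.014, Heatr1 was 0.072, Bysl was 0.068, Polr1a was -0.045, Epcam was 0.037, and Ptprc was -0.023. After quantile normalization, Pes1 was -0.036. The ranges with single arrays left out were Myc -0.21 to 0.31, Nop14 -0.0060 to 0.33, Nop16 -0.43 to 0.40, Nop56 -0.18 to 0.32, Dkc1 -0.41 to 0.028, Gar1 -0.27 to 0.10, Pes1 -0.17 to 0.24, Wdr12 -0.035 to 0.69, Wdr74 -0.36 to 0.26, Utp15 -0.13 to 0.44, Utp20 -0.35 to 0.20, Heatr1 -0.52 to 0.25, Gnl3 -0.52 to 0.17, Polr1a -0.028 to 0.32, Ubtf -0.057 to 0.23, Ddx21 -0.48 to 0.10, Epcam -0.23 to 0.083, and Ptprc -0.013 to 0.023. The SD filter was applied to the count of probe sets alone. Signal over background is unknown, so what dim probe sets limit cannot be given.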
